A study of Danio rerio with 6 samples.

Results

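The circadian clock genes of the zebrafish proximal intestine were examined 2 weeks after intestinal resection. The 10 genes were chosen by name, with earlier results of these data known. They were the activators arntl1a and clocka, the period genes per1a, per1b, per2 and per3, the Rev-erb receptor genes nr1d1, nr1d2a and nr1d2b, and the bZIP factor gene tefa. All 10 had a row in the deposited count table and all 10 passed the filter on low counts, among 12381 genes tested of 12398 kept. The fish were adult male wild-type Ekk zebrafish. Short bowel syndrome (SBS) fish had the middle of the intestine removed, the distal end ligated and the proximal end opened as an ostomy, whereas sham fish had a laparotomy in which the bowel was left alone. RNA came from the full thickness of the proximal segment, so that all its cell layers were pooled, and the libraries were made from the fish with the highest RNA concentration in each group. The count columns of the first and the second SBS fish were identical in 12488 of 12488 rows and were used once. The comparison is therefore between 3 sham libraries (sham 1, sham 2 and sham 3) and 2 SBS libraries (SBS 1 and SBS 3), numbered as their replicates.

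The vertebrate clock is a feedback loop of transcription. Clock and Bmal proteins (the latter encoded by the arntl genes) bind E-box sequences as a pair and activate the period and cryptochrome genes, whose proteins then block that pair. The same pair activates the Rev-erb genes (nr1d), whose receptors repress transcription of the arntl and clock genes, and the ROR receptors act on the same sites in the opposite direction. In a running clock the transcripts of the activators and those of the period and Rev-erb genes therefore peak at different times of the day. The bZIP factors Tef, Dbp and Hlf act on D-box sequences that Nfil3 represses. In zebrafish, cells of peripheral organs can be set directly by light, which induces per2, cry1aa and several DNA repair genes. The hours of tissue collection, the feeding times and the lighting are not given in the sources used here, so a difference in clock time between the groups and an effect of surgery cannot be told apart.

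Reads counted on genes ranged from 38728394 to 47142289 in the sham libraries and were 20377652 and 38867364 in SBS 1 and SBS 3. Every count of SBS 1 was even, where 50.2% to 50.9% of the counts were even in the other libraries. Its counts may have been doubled, so its read number is uncertain. The sources used here do not say so, nor which SBS fish the shared column came from. The study lists the fewest mapped reads for its SBS 1, and the shared column held the fewest reads on genes. The trimmed mean of M values (TMM) method, which scales libraries to the bulk of their genes, gave factors of 0.707 to 0.919 in sham and of 1.502 and 1.326 in SBS. Spike-in sequences, added to the samples before library construction, made up 0.663% to 0.809% of the counts in sham. They made up 1.72% in SBS 1 and 2.43% in SBS 3, and no scaling to them was run. Levels are given as CPM, the counts of a gene relative to the TMM-scaled library size. Markers of absorptive enterocytes were present in every library and lower in SBS, with a summed level of 108953 to 159497 CPM in sham, 10114 in SBS 1 and 46452 in SBS 3. Of these 12 markers, 12 lay lower in both SBS libraries than in any sham library, against 24.3% of all genes, and 0 were at 0. By the test described next 1 was called lower, against 2.06% of all genes. In bulk tissue, fewer cells of a type and less RNA per cell cannot be told apart.

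Of the period genes 3 of 4 were called lower in SBS, of the Rev-erb genes 2 of 3, and tefa was called lower too, while neither activator was called. Of the called genes, nr1d1 differed most, with a mean 46.2-fold lower in SBS, and per2 least, with a mean 3.90-fold lower. The remaining period and Rev-erb genes, per1b and nr1d2a, were below sham in both SBS libraries but missed the adjusted p. The call required an adjusted p under 0.05 (edgeR's quasi-likelihood test with Benjamini-Hochberg adjustment over all genes tested) together with a log2 fold change, always of SBS over sham, of at least 1.5 or at most -1.5. By this rule 6 of the 10 genes were called lower, namely per1a, per2, per3, nr1d1, nr1d2b and tefa, where 4.55% of all genes tested were called and 2.06% were called lower. None was called higher, where the share over all genes was 2.49%. Without the limit on the fold change arntl1a also passed, so that 7 of the 10 did, against 4.76% of all genes. At an unadjusted p under 0.05 the number was 9, against 28.9%. By size alone, 8 of the 10 had a log2 fold change beyond 1.5 in either direction, against 22.3% of all genes. The groups did not overlap for 9 genes, against 46.9% of all genes. For 8 of these the SBS libraries lay below every sham library and for 1 above, against 24.3% and 22.6%. The median log2 fold change was -3.40 over the 10 genes and 0.00038 over all genes tested. With any one of the sham libraries left out, the quasi-likelihood test called 0 genes of any kind, while 2214 to 2660 had an unadjusted p under 0.05. The adjusted p of the 6 called clock genes was then between 0.0758 and 0.124, while their log2 fold changes moved by at most 0.32 and all kept their direction. At least 8 of the 10 had an unadjusted p under 0.05 in each of these fits. Without SBS 1 or SBS 3 only 1 SBS library was left, so that the spread came from the sham libraries. The log2 fold changes of the 6 then moved by at most 1.03 and 1.00, and all kept their direction.

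**Figure D1:**
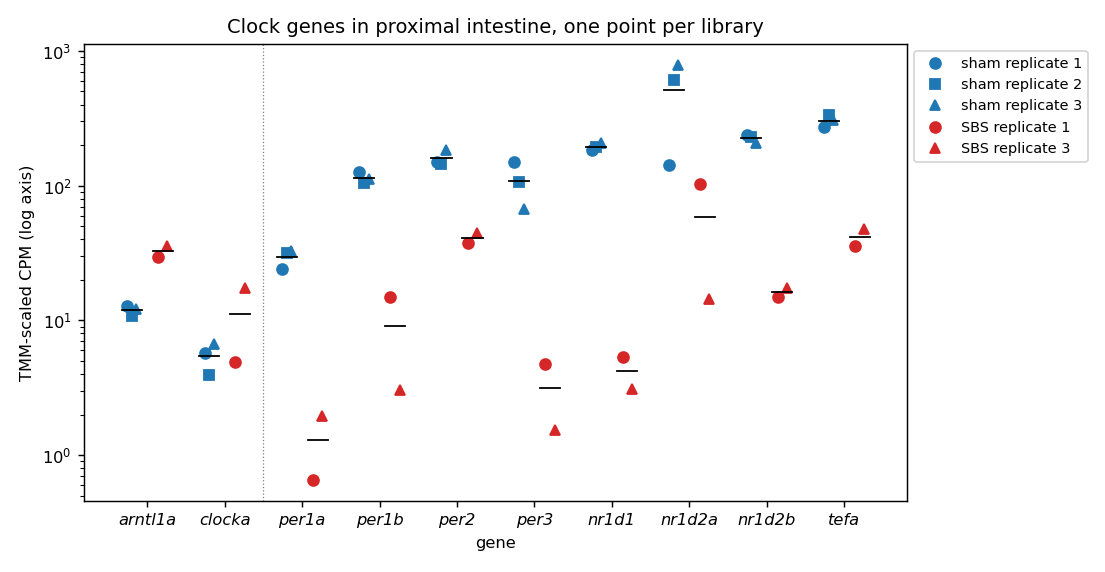
Level of each clock gene in each library, as TMM-scaled CPM on a log axis, with 1 point per library, sham in blue, SBS in red and the group mean as a bar. For the 8 genes right of the dotted line both SBS points lie under all sham points, for arntl1a both lie above them, and the groups of clocka overlap.

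Among the activators, arntl1a (ENSDARG00000006791, chromosome 25), which encodes a Bmal protein, stood at 12.8, 10.8 and 12.2 CPM in sham 1, 2 and 3 and at 29.5 and 35.7 CPM in SBS 1 and SBS 3. Every SBS value was above every sham value, and the libraries of a group differed little from each other. The mean level was 12.0 ± 1.04 CPM (SD, n = 3) in sham and 32.6 ± 4.32 CPM (SD, n = 2) in SBS. On the log2 scale the difference was 1.45 (standard error 0.24, adjusted p = 0.0351 by the quasi-likelihood test), just inside the limit of 1.5 and therefore not called. Scaled to library totals the log2 fold change was 2.27, and arntl1a was then called (adjusted p = 0.0121). The level of clocka (ENSDARG00000011703, chromosome 20), which encodes the partner protein, was 5.77, 3.93 and 6.63 CPM in sham, 4.90 in SBS 1 and 17.4 in SBS 3. Here SBS 1 lay within the sham range and SBS 3 lay above it. The log2 fold change was 1.04 with a 95% interval of -0.36 to 2.44 (adjusted p = 0.282), and without SBS 3 it was -0.15. Scaled to library totals it was 1.84, and clocka was then called (adjusted p = 0.048).

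The period genes encode the repressors of the activator pair. Their levels were of the order of 100 CPM in sham for all but per1a, and each was lower in both SBS libraries. In per1a (ENSDARG00000056885, chromosome 10) the sham libraries held 24.2, 31.4 and 32.6 CPM and the SBS libraries 0.653 and 1.94. The lowest sham library was thus 12.5-fold above the highest SBS library. The log2 fold change was -4.48 (standard error 0.57, adjusted p = 0.0229), or -5.48 without SBS 3 and -3.92 without SBS 1. The level of per1b (ENSDARG00000012499, chromosome 7) was 125, 105 and 112 CPM in sham, 15.0 in SBS 1 and 3.03 in SBS 3. The groups did not overlap, but the SBS libraries differed from each other 4.97-fold where the sham libraries differed 1.19-fold. For per1b the log2 fold change was -3.66 (95% interval -5.49 to -1.83, adjusted p = 0.0541), so it was not called. The log2 fold change of per1b was -5.24 without SBS 1 and -2.92 without SBS 3.

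The gene per2 (ENSDARG00000034503, chromosome 2), whose transcription in zebrafish is induced by light, showed 151, 145 and 184 CPM in sham and 37.2 and 44.8 CPM in SBS. Both groups were tight and did not overlap, and the log2 fold change was -1.96 (standard error 0.29, adjusted p = 0.028), the smallest among the period genes. Scaled to library totals it was -1.13, which is inside the limit. The level of per3 (ENSDARG00000010519, chromosome 11) was 150, 107 and 66.7 CPM in the sham libraries and 4.77 and 1.53 CPM in the SBS libraries. Although the sham libraries differed 2.25-fold, the lowest of them was 14.0-fold above the highest SBS library. The log2 fold change of per3 was -5.10 (standard error 0.72, adjusted p = 0.0265), with -6.13 without SBS 1 and -4.50 without SBS 3.

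The Rev-erb genes encode nuclear receptors that bind haem and repress the activator genes. In nr1d1 (ENSDARG00000033160, chromosome 3) the level was 185, 193 and 207 CPM in sham and 5.36 and 3.10 CPM in SBS, the widest gap of the 10 genes. The log2 fold change was -5.53 (standard error 0.42, adjusted p = 0.0116), and in size it exceeded those of 97.9% of all genes tested. Under the 16 alternatives tried, it ranged from -5.97 to -4.68. The level of nr1d2b (ENSDARG00000009594, chromosome 19) was 237, 231 and 208 CPM in sham and 14.8 and 17.4 CPM in SBS. Libraries of a group differed by no more than 1.18-fold, and the log2 fold change was -3.81 (standard error 0.31, adjusted p = 0.0142).

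Its paralog nr1d2a (ENSDARG00000003820, chromosome 16) was far more variable. The sham libraries held 143, 609 and 790 CPM, SBS 1 held 103 and SBS 3 held 14.4. Both SBS values were under all sham values, but sham 1 was only 1.39-fold above SBS 1. The log2 fold change was -3.13 with a 95% interval of -5.92 to -0.35 (adjusted p = 0.141), and nr1d2a was not called. It was -5.16 without SBS 1 and -2.32 without SBS 3. A low value in sham 1 was also seen in other genes of the wider lists. Of the 72 list genes, 10, nr1d2a itself included, had sham 1 lowest, sham 3 highest and at least 3-fold between them. Over all genes tested the share was 2.6%, and the limit was set after these values were seen. Of the 10 glucocorticoid targets 6 were among them. The level of pck1, the gluconeogenic enzyme that glucocorticoids and fasting induce, was 652, 3116 and 6879 CPM in sham and 554 and 223 in SBS. That of klf9, a glucocorticoid-induced transcription factor gene, was 6.50, 24.1 and 173 CPM in sham and 22.1 and 4.97 in SBS, and that of nfil3-6 was 117, 548 and 826 CPM in sham and 156 and 26.1 in SBS. The widest sham spread was that of fkbp5, a glucocorticoid-induced chaperone gene, with 10.5, 402 and 554 CPM in sham and 446 and 188 in SBS, so that SBS was not low. The others were tsc22d3, ddit4, cebpd, cdkn1d and rorcb, whose groups all overlapped. The glucocorticoid targets mt2, sgk1, nfkbiaa and per1a were not among them. The level of mt2 was 554, 700 and 163 CPM in sham and 16.5 and 50.7 in SBS. In sham 1, 2 and 3, sgk1 was at 154, 326 and 207 CPM and nfkbiaa at 118, 158 and 129 CPM. The levels of nr1d1 and nr1d2b varied by at most 1.14-fold among the same sham libraries. None of the 10 genes with this order of the sham libraries was called in SBS against sham, where 4.55% of all genes were called.

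The gene tefa (ENSDARG00000039117, chromosome 12), which encodes the D-box activator Tef, was at 272, 333 and 306 CPM in sham and 35.9 and 47.6 CPM in SBS. The groups were separated by a gap of 5.72-fold between the lowest sham and the highest SBS library. The log2 fold change was -2.86 (standard error 0.33, adjusted p = 0.0198), and it was between -3.08 and -2.67 with any 1 library left out.

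**Figure D2:**
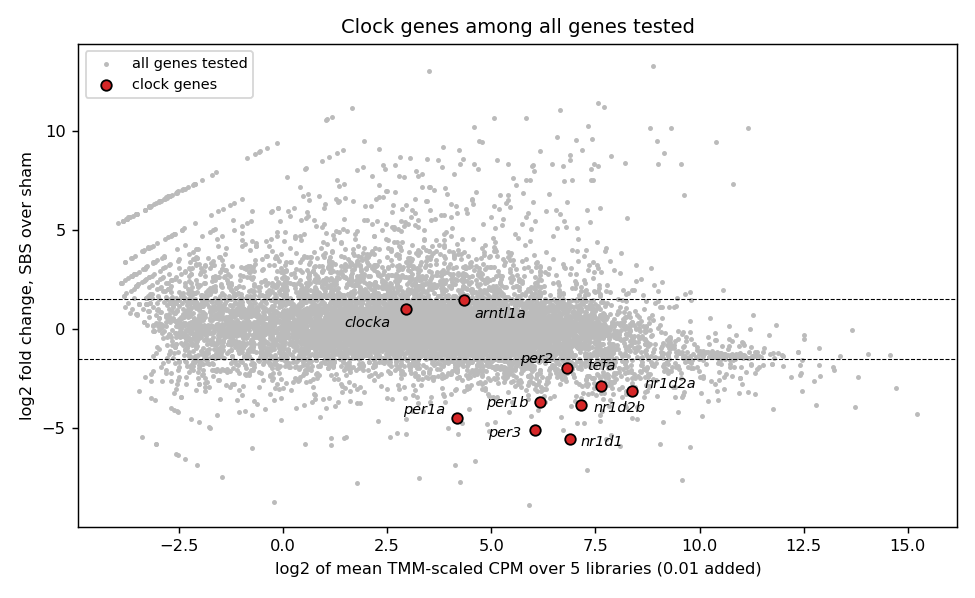
Log2 fold change of SBS over sham against the log2 of the mean TMM-scaled CPM (0.01 added) for 12381 genes in grey and the 10 clock genes in red, with dashed lines at 1.5 and -1.5. The 8 period, Rev-erb and tefa points lie under the lower line, from -1.96 for per2 to -5.53 for nr1d1, and arntl1a and clocka lie between 0 and the upper line.

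Levels of different genes can be compared only per length, so CPM were divided by the deposited gene length in kilobases. In sham, the mean length-scaled level was highest for nr1d2a (128) and tefa (111), followed by nr1d1 (65.8), nr1d2b (59.5), per2 (30.3), per3 (22.7), per1b (16.8) and per1a (7.93). The activators arntl1a (5.10) and clocka (1.58) were the lowest. In this order the values of nr1d2a and tefa overlapped between libraries, as did those of per2 and per3 and those of per3 and per1b. The other neighbours were apart in all 3 libraries, nr1d1 and nr1d2b only narrowly (lowest 62.54 against highest 62.52). In sham 1 nr1d2a was at 35.8, under every sham value of tefa, nr1d1 and nr1d2b. In SBS the order was tefa (15.3), nr1d2a (14.6), arntl1a (13.9), per2 (7.76), nr1d2b (4.25), clocka (3.24), nr1d1 (1.43), per1b (1.33), per3 (0.663) and per1a (0.35). The activator arntl1a thus moved from position 9 in sham to position 3 in SBS. Of the neighbours in the SBS order, arntl1a and per2 were apart in both libraries, as were per2 and nr1d2b, and the others overlapped.

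Ratios between clock genes of the same library do not depend on how libraries are scaled. The log2 ratio of length-scaled levels was taken for the 8 period, Rev-erb and tefa genes against arntl1a and against clocka. All 8 ratios to arntl1a were above 0 in every sham library, from 0.25 to 5.24, and ranged from -6.16 to 1.03 in SBS. For nr1d1 the ratio to arntl1a was 3.51, 3.82 and 3.74 in the sham libraries and -2.80 and -3.86 in the SBS libraries, a mean difference of -7.02. For per2 it was 2.38, 2.57 and 2.74 in sham and -0.84 and -0.84 in SBS, the smallest of the 8 shifts at -3.40. Relative to clocka, the ratios ranged from 1.96 to 7.06 in sham and from -3.97 to 4.17 in SBS. In all 16 ratios both SBS libraries lay below all sham libraries, including those to clocka in SBS 1, where clocka itself was within the sham range. For the 8 ratios to arntl1a this had to follow from the levels above. There the 8 genes lay below every sham library in SBS and arntl1a lay above. The 16 ratios were not tested, since the genes were examined together and a score over them is not an independent measure.

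**Figure D3:**
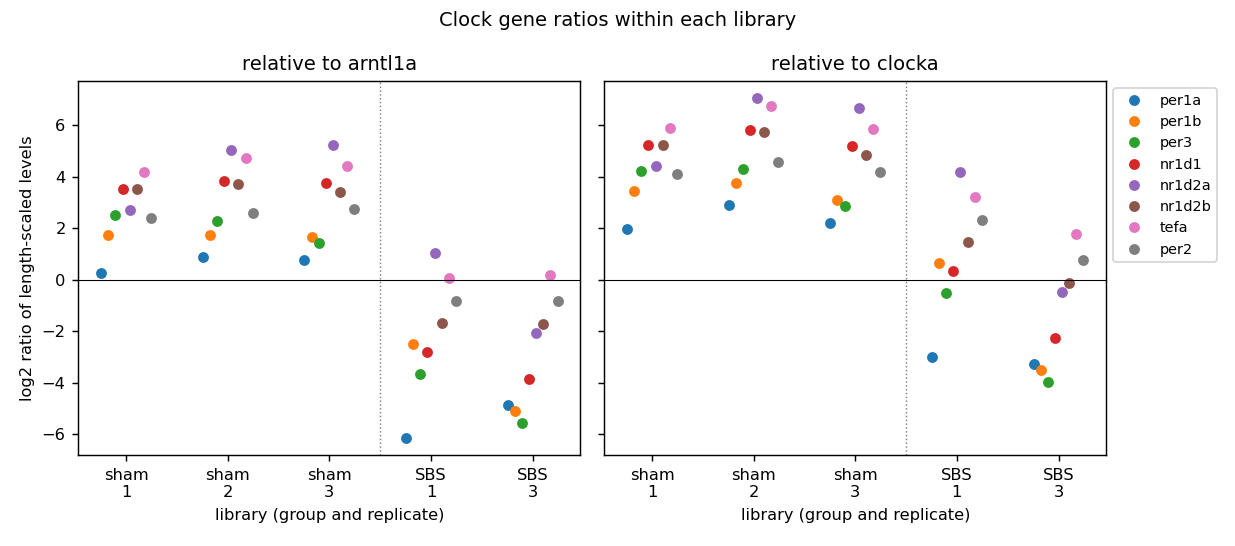
Log2 ratio of the length-scaled level of each of 8 clock genes to arntl1a (left) and to clocka (right) in each library, 1 point per gene and library. All sham points lie above 0, and for each gene both SBS points lie below its 3 sham points.

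The other genes of the loops were examined through lists of named genes, of which 62 besides the 10 were tested. Of these 62, 3 were called higher and 11 lower, where the shares over all genes were 2.49% and 2.06%, and 48 were not called. Their median log2 fold change was -0.17. When libraries were scaled to their totals, which moved the median log2 fold change of all genes to 0.82, 14 of the 72 genes of the lists were called higher and 12 lower, where TMM gave 3 and 17. Over all genes that scaling called 16.9% higher and 1.6% lower, against 19.4% and 16.7% of the list genes. Under the DESeq2 size factors and the upper quartile the counts were 3 and 16. With any one sham library left out none of the 14 called genes passed, with adjusted p between 0.0758 and 0.167 and shifts in log2 fold change of at most 0.23. The log2 fold changes of the 14 moved by at most 0.89 without SBS 1 and 0.55 without SBS 3, and all kept their direction.

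Of the 4 other activator genes, 1 was called, and it was higher, where 2.49% of all genes were called higher. This was arntl2, a further Bmal gene, with 3.55, 2.22 and 3.45 CPM in sham and 13.9 and 17.7 CPM in SBS (log2 fold change 2.36, standard error 0.34, adjusted p = 0.0266). The paralog arntl1b lay above sham in both SBS libraries with 7.25 and 11.1 CPM against 4.62 to 6.13, but did not pass (log2 fold change 0.79, adjusted p = 0.181). The level of clockb was 12.7 to 13.1 CPM in sham and 15.1 and 13.7 in SBS (0.15, 95% interval -0.42 to 0.72), and npas2, a relative of clocka, overlapped between the groups (-0.25, 95% interval -1.53 to 1.02).

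Cryptochromes of the loop bind the period proteins, and the 6 cryptochrome genes tested did not move together. Whether each of the 6 encodes a repressor of the activator pair was not examined here. Of them 3 were called lower and 1 higher, against 2.06% and 2.49% of all genes. The level of cry2 was 83.5, 70.5 and 62.2 CPM in sham and 6.93 and 4.25 CPM in SBS (log2 fold change -3.69, standard error 0.37, adjusted p = 0.0171). Those of cry1aa (-1.55, adjusted p = 0.0343) and cry1ab (-1.99, adjusted p = 0.0479) were lower by less, and both fell inside the limit when libraries were scaled to their totals (-0.73 and -1.15). In contrast, cry1bb was at 27.9, 21.1 and 22.2 CPM in sham and at 65.0 and 118 CPM in SBS (log2 fold change 1.95, standard error 0.34, adjusted p = 0.0378). Both SBS libraries of cry1bb were above all sham libraries, the reverse of cry1aa and cry1ab. The remaining ones, cry4 (1.18, adjusted p = 0.106) and cry1ba (-0.24, adjusted p = 0.768), did not pass, and cry1ba was at 0.54 when scaled to library totals, a move of about the size of the shift of all genes under that scaling.

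The ROR receptors activate from the sites at which the Rev-erb receptors repress. Of the 7 further receptor genes, 2 were called, both lower, where 2.06% of all genes were called lower. The level of rorab was 74.1, 68.2 and 89.0 CPM in sham and 12.0 and 21.5 in SBS (log2 fold change -2.20, standard error 0.36, adjusted p = 0.0346), and that of roraa was 5.10 to 6.70 CPM in sham and 1.37 and 1.45 in SBS (-2.05, adjusted p = 0.0383). Scaled to library totals both were still lower, at -1.39 and -1.24, but inside the limit. In rorca, the paralog with 26.2 to 36.3 CPM in sham and 22.5 and 30.8 in SBS, the groups overlapped (-0.23, 95% interval -0.92 to 0.46). They overlapped too in rorb (-0.99, 95% interval -2.96 to 0.98) and rorcb (0.25, 95% interval -1.73 to 2.24). The further Rev-erb genes nr1d4a (0.66, 95% interval -1.38 to 2.70) and nr1d4b (1.70, 95% interval -0.31 to 3.70) had positive log2 fold changes, with overlapping groups. The highest level of either was 2.21 CPM, of nr1d4a in SBS 3.

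Among the D-box factors the dbp genes were lower and an nfil3 gene was higher. The levels of dbpa were 6.0, 3.99 and 7.11 CPM in sham and 0.588 and 0.272 in SBS (log2 fold change -3.74, standard error 0.58, adjusted p = 0.0297), and those of dbpb were 4.72, 4.97 and 6.21 CPM in sham and 0.784 and 0.524 in SBS (-3.02, standard error 0.43, adjusted p = 0.0266). The paralog of tefa, tefb, was lower in both SBS libraries without being called (-1.52, 95% interval -2.26 to -0.78, adjusted p = 0.0521). The gene nfil3-5, of the family that represses D-boxes, stood at 3.73, 5.26 and 6.18 CPM in sham and at 111 and 41.2 CPM in SBS. This was the widest rise among the list genes, with a log2 difference of 3.92 (standard error 0.50, adjusted p = 0.023). Its relatives nfil3-2 (2.67, adjusted p = 0.0651) and nfil3 (0.90, adjusted p = 0.135) were above sham in both SBS libraries but were not called. The nfil3 gene with the highest level, nfil3-6, went the other way, although its groups overlapped (-2.45, 95% interval -5.16 to 0.26). The groups of nfil3-4 overlapped too (1.58, 95% interval -2.41 to 5.57). So did those of hlfa (-0.95, 95% interval -2.42 to 0.52) and of hlfb (1.15, 95% interval -0.98 to 3.29). Of the E-box repressors, bhlhe41 was below sham in both SBS libraries (-1.89, adjusted p = 0.107), while bhlhe40 held 469 CPM in SBS 1 and 60.0 in SBS 3 against 189 to 288 in sham.

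Of the genes that light induces in zebrafish, 8 were tested, and all 8 lay below every sham library in both SBS libraries, against 24.3% of all genes. Of these, 7 were called lower, per2 and tefa among them, against 2.06% of all genes. The ultraviolet damage sensor gene ddb2 was at 47.2, 43.3 and 50.4 CPM in sham and at 3.92 and 5.76 in SBS (log2 fold change -3.28, standard error 0.31, adjusted p = 0.0171). The level of cry5, which encodes the 6-4 photolyase that repairs ultraviolet damage with light, was 26.2, 15.6 and 22.7 CPM in sham and 2.74 and 2.79 in SBS (-2.96, standard error 0.35, adjusted p = 0.0202). The cryptochrome relative cry-dash (-2.41, adjusted p = 0.0379), the excision repair gene xpc (-1.88, adjusted p = 0.0448) and cry1aa were also called, and neil1 was not (-0.998, adjusted p = 0.218). Scaled to library totals, ddb2 (-2.46) and cry5 (-2.11) were still called, while cry-dash (-1.55, adjusted p = 0.0562) and xpc (-1.09) were not.

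**Figure D4:**
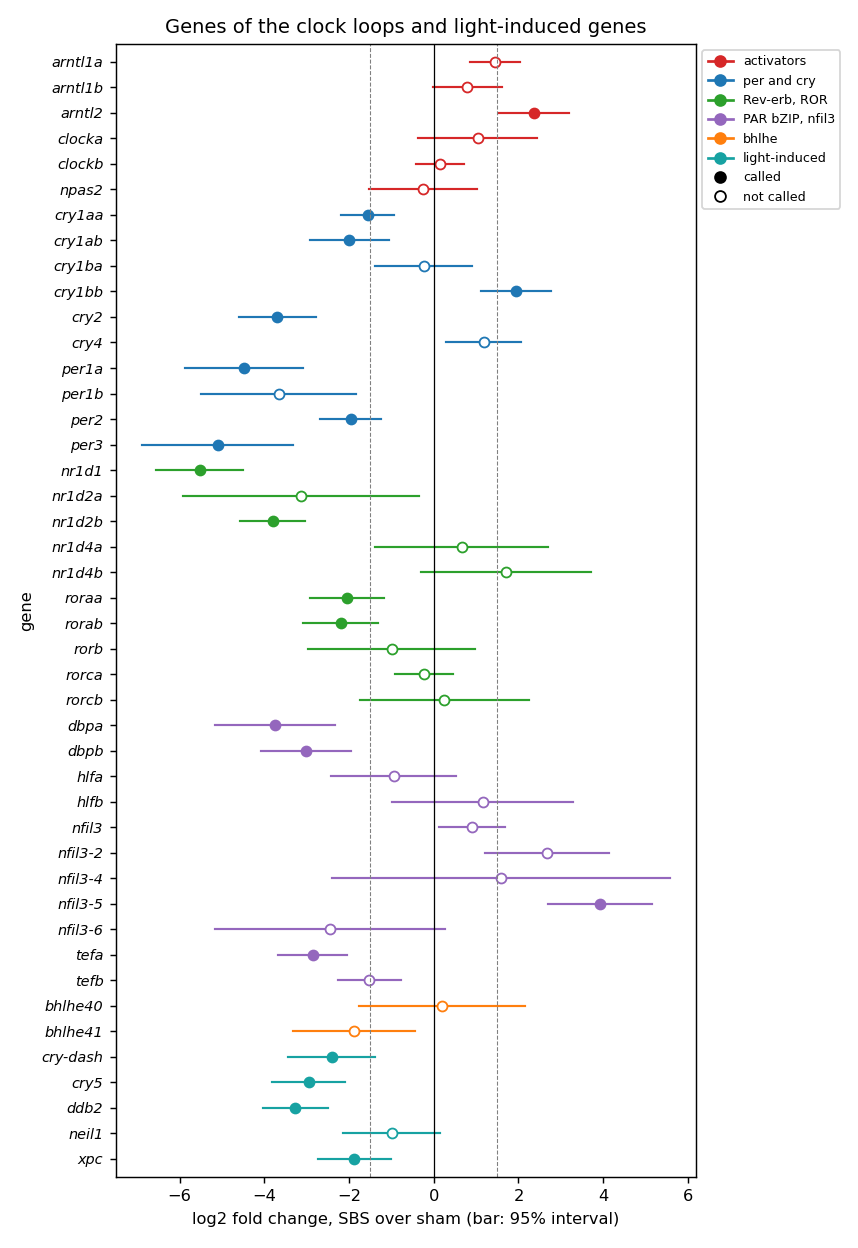
Log2 fold change of SBS over sham with its 95% interval for the 44 tested genes of the clock loops and the light-induced list, coloured by list, with filled points for called genes and dashed lines at 1.5 and -1.5. Filled points left of the lower line belong to the period, cryptochrome, Rev-erb, ROR, D-box and light-induced genes, and those right of the upper line are arntl2, cry1bb and nfil3-5.

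Kinases and ubiquitin ligases set the stability of the period and cryptochrome proteins. Of 12 such genes 0 were called, against 4.55% of all genes, and 3 had an unadjusted p under 0.05, against 28.9%, namely csnk1db, fbxw11b and gsk3ab. The median log2 fold change was -0.018, and the values ran from -0.90 for csnk1db to 0.86 for fbxw11b. Of 8 genes known as clock outputs, 0 were called, against 4.55% of all genes, and 4 had an unadjusted p under 0.05, against 28.9%. One of them, wee1, chosen for mention after its values were seen, encodes a kinase that delays mitosis and held 11.7, 12.0 and 11.9 CPM in sham and 29.7 and 29.0 in SBS (log2 fold change 1.30, adjusted p = 0.036), inside the limit. The other 3 missed the adjusted p. The pyruvate dehydrogenase kinase gene pdk4 lay below sham in both SBS libraries (-2.10, adjusted p = 0.0641), and aanat2, of melatonin synthesis, (2.51, adjusted p = 0.119) and pora (1.42, adjusted p = 0.142) lay above, aanat2 at levels under 2 CPM in every library. Of 9 glucocorticoid targets other than per1a, 0 were called, against 4.55% of all genes. An unadjusted p under 0.05 was reached by 2, against 28.9%. These were pck1 (log2 fold change -3.19, adjusted p = 0.131) and the metallothionein gene mt2 (-3.81, adjusted p = 0.0699).

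Markers of other cell types differed between the same libraries. Of 21 hepatocyte markers, 18 were called higher in SBS, against 2.49% of all genes. Above sham in both SBS libraries lay 20, against 22.6% of all genes. The exception was apobb.1, which enterocytes also express. Without it, their summed level was 59.6 to 65.2 CPM in sham, 19389 in SBS 1 and 3708 in SBS 3, and with it 10537 to 16766, 21800 and 7879. The defining hepatocyte markers fabp10a, tfa, ambp and fga were above 0 in every library, and of the list only rbp2b was at 0, in sham 1. Of 9 leukocyte markers 1 was called higher, against 2.49% of all genes. The 9 summed to 176 to 353 CPM in sham, 2285 in SBS 1 and 11481 in SBS 3. In SBS 3 most of that sum was mpx, a neutrophil peroxidase gene and the one called, with 11098 CPM there, 286 in SBS 1 and 3.06 to 8.21 in sham. The level of mmp13a was 878 CPM in SBS 1, 7.86 in SBS 3 and 0.956 to 1.69 in sham. The other 7 summed to 171 to 344 CPM in sham, 1122 in SBS 1 and 375 in SBS 3. Of all 9 leukocyte markers, 5 lay above sham in both SBS libraries and 1 below, against 22.6% and 24.3% of all genes. An unadjusted p under 0.05 was reached by 5, against 28.9%. Exocrine pancreas markers (11) and smooth muscle markers (5) had 0 calls, against 4.55% of all genes. Of them 0 and 1 had an unadjusted p under 0.05, against 28.9%. The pancreas markers summed to 1668 to 45238 CPM in sham, 2595 in SBS 1 and 9082 in SBS 3 (median log2 fold change -1.71). The smooth muscle markers summed to 2548 to 6064 CPM in sham, 819 in SBS 1 and 4239 in SBS 3 (median -0.89). Among 4 erythrocyte markers 1 was called higher, against 2.49%. The sums of the enterocyte markers and of the hepatocyte markers without apobb.1 were farthest from sham in SBS 1. Of the clock genes, per1b, per3, nr1d1, nr1d2a, arntl1a and clocka were farthest from sham in SBS 3, and per1a, per2, nr1d2b and tefa in SBS 1. The part of these cell types in the clock gene differences was not tested.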

How the data were processed

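RNA-seq libraries of proximal intestine, 3 sham and 3 SBS, were deposited by the authors as raw counts in 1 table, made with FastQC, Trimmomatic, STAR and HTSeq-count. The study's methods name the genome danRer7 and the submitters' processing notes GRCz10 (danRer10), so only the deposited chromosomes are given. Versions, annotation release and strand setting are not given in the sources used here, so reads of a gene and of an antisense neighbour could not be told apart. The length in bases is another value deposited by the authors. The 6 RPKM columns and the authors' fold changes, log2 levels, likelihood ratios, p-values and FDR were not used.

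Spike-ins (70 rows) and 20 repeated gene rows were left out, and genes needed at least 10 counts over the 5 distinct libraries. Counts were tested with edgeR 4.0.16 in R 4.3.3 (TMM, glmQLFit and glmQLFTest, group as the only term), with limma 3.58.1 and DESeq2 1.42.0 for alternatives. The study combined RUVSeq with edgeR, and this was run as an alternative (RUVg written by hand, 1 factor, with the 5000 genes of smallest p kept out of the controls). Intervals are 95% intervals of the quasi-likelihood fit. The code of the fits was also run on simulated data, which does not measure error rates in these libraries.

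The 10 genes and the gene lists were chosen with earlier results of these data known. Named genes were the 10, the called genes of the lists, in each list the 3 largest log2 fold changes, and the paralogs of the 10. Genes outside this rule (neil1, wee1, pora, fkbp5, tsc22d3, ddit4, cebpd, cdkn1d, sgk1, nfkbiaa and the cell type markers) were chosen for mention after their values were seen. Alternatives were other scalings and filters, the likelihood ratio and Wald tests, RUVg, the replicate block, each library left out, all 6 columns, and halved counts of SBS 1. The libraries are of separate fish per the study's methods. Promoter sequences were not analysed here.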

Additional observations from a re-analysis of the deposited data

How the results depend on the processing

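Of 814 log2 fold changes of the 51 named genes under 16 alternatives, 17 changed direction. One was in a clock gene of the 10, clocka, at -0.15 without SBS 3. The others were bhlhe40 (-1.26 with RUVg, -0.48 with the replicate block, -1.94 without SBS 1), cry1ba (0.54 with library totals, 0.053 with RUVg, 0.31 without SBS 1), npas2 (0.52, 0.11, 0.31 in the same order, and 0.017 without sham 1), rorca (0.60 with library totals, which moved the median of all genes to 0.82), nfil3-4 (-2.84 with RUVg), rorcb (-0.25 with RUVg, -0.12 without sham 1, -0.55 without SBS 1) and nr1d4a (-1.08 without SBS 3). With each library left out, the values ran from -0.15 to 1.68 for clocka, -1.94 to 1.03 for bhlhe40, -1.13 to 0.31 for cry1ba, -1.19 to 0.31 for npas2, -0.55 to 1.31 for rorcb and -1.08 to 1.41 for nr1d4a. The cause was not tested.

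The 6 calls among the 10 genes became 8 in the likelihood ratio and Wald tests, 9 with RUVg, 7 with all 6 columns and 8 with library totals (2 higher, 6 lower, without per2), and they were 0 to 8 with each library left out. The list genes called, 20 of 72, became 32 with RUVg and 0 to 26 with each library left out. Over all genes, 563 calls became 2293 with library totals (2095 higher and 198 lower, against 308 and 255), 1931 in the likelihood ratio test, 1891 in the Wald test, 1690 with RUVg, 1936 with all 6 columns, and 0 to 2330 with each library left out. Where 1 SBS library was left, its spread was taken from the sham libraries.

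Replicate numbers pair only libraries 1 and 3 and mark no shared fish. With the replicate block 0 of all genes, 0 of the 10 and 0 of the 72 were called, though 1923, 8 and 29 had an unadjusted p under 0.05. Deviations of same-numbered libraries from their group means correlated at -0.094 and -0.11. With 2 SBS libraries the deviations of SBS 1 and SBS 3 mirror each other. These correlations therefore cannot decide whether the numbers pair libraries. Some calls among the 10 genes turned on the test or scaling. The genes per1b and nr1d2a were called in the likelihood ratio and Wald tests and with RUVg, which also called arntl1a. With library totals per1b, arntl1a and clocka were called and per2 was not. Harvest at 1 time after surgery gives no phase.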
